A study of Saccharomyces cerevisiae with 13 samples.

Results

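Divergent gene pairs are neighbouring genes that are transcribed away from each other from one shared promoter region. In the yeast Saccharomyces cerevisiae, systematic names carry the chromosome, the arm, a running number from the centromere and the coding strand (W or C), so such pairs can be read from the names. On a right arm the C gene has the lower number and the W gene the next one, and on a left arm the order is reversed. Names with a suffix and genes of chromosome 12 were left out. The rule found 1384 pairs, that is 2768 of the 6326 genes in the tables, and 2762 of them had values. They were compared with 2340 genes whose 5′ neighbour lies on the same strand (same-strand neighbours), 2337 of which had values.

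The study followed nucleosomes on newly replicated DNA in rtt109Δ cells, which lack the acetyltransferase of lysine 56 of histone H3. Newly made DNA of asynchronous cells was labelled with EdU for 5 min, followed by 5 min of thymidine, and nascent chromatin was taken at set times after the thymidine incubation. Replicate 1 was sampled at 0, 2, 4, 6, 8 and 15 min, and replicate 2 at 2, 4, 6, 8, 15 and 25 min. These 12 nascent libraries were compared with 1 library of bulk chromatin. The strain derives from W303 and carries the h-ENT1 transporter and a thymidine kinase, which let it take up and use EdU. All 13 libraries carry these features, and no wild-type library was analysed here. The source labels name a chd1 deletion where the titles name rtt109D, and the study's description was followed. The titles also call the time course libraries input DNA, while their thymidine label and description call them nascent chromatin. They are treated as nascent here, and every comparison with bulk rests on that. The study's methods call the replicates biological, and each group of 4 early or 4 late libraries holds 2 times of each replicate.

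In yeast, most promoters hold a nucleosome-depleted region (NDR) just upstream of the transcription start site (TSS), followed by a well positioned +1 nucleosome and a regular array over the gene. At a divergent promoter the region upstream of one gene is the start of the other, so the nucleosome at its −1 position is often the +1 nucleosome of its partner. Replication removes nucleosomes ahead of the fork, and they are rebuilt behind it on both daughter strands. Acetylation of lysine 56 marks the newly made histone H3 that is used in this step.

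The pairs are shown here by a few reference sequences from the RefSeq assembly R64, all read on the plus strand. Of the 1384 pairs, 1176 had both genes in that annotation, and a median of 523.5 bases separated their start codons. The reference strain is S288C, not W303. GAL1 and GAL10, which encode the galactokinase and the epimerase of galactose use, are the textbook case: 3 copies of the Gal4 motif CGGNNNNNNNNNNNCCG lie between them. The stretch of chr2:278562-278627 is printed with the 3 copies in capitals.
GAL1-GAL10: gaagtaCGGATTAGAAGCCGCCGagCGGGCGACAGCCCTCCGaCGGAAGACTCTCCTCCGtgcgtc
At least 1 copy of this motif was found between the start codons of 51 of 1165 pairs (4.38%), and 3 copies only between GAL1 and GAL10. HTA1 and HTB1 encode histones H2A and H2B, and 2 copies of the motif TTCCNNNNNNTTCNC, searched on both strands, lie between them. They are in capitals in chr4:915108-915157.
HTA1-HTB1: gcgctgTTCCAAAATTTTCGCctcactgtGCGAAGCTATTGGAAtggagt
Each of the other histone pairs had 1 copy, and 62 of the 1165 pairs (5.32%) had at least 1. Runs of at least 7 A or T bases, which disfavour nucleosomes, are in capitals in the middle of 2 pairs to which the results below return, AVT6-SCS2 (chr5:400914-401063) and YBP1-ATG12 (chr2:657667-657766).
SCS2-AVT6: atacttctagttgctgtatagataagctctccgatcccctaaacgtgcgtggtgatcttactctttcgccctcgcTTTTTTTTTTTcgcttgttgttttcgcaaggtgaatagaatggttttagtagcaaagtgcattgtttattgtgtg
ATG12-YBP1: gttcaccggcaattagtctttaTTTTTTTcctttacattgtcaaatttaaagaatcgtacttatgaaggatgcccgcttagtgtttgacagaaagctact
Such a run was found in the central 150 bases of 349 of 1146 pairs (30.5%) and in the central 100 bases of 278 of 1153 pairs (24.1%). Between 200 and 51 bases before the start codon, 896 of 2558 divergent genes and 872 of 2249 same-strand genes (38.8%) had one. The motif TATAAA, on either strand, was in 27.7% of these windows of divergent genes and in 34.3% of those of same-strand genes.

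The tables give MNase signal in 20 bp bins around each TSS, relative to the mean of the library, so shapes can be compared between libraries but amounts cannot. The signal that 1 library-mean unit stands for was 2.57 to 78.1 reads per bin. The shallowest library was replicate 1 at 0 min, which also had the most bins listed at 0. Next was replicate 1 at 4 min, an early library, with 4.94 reads per bin and 20.4% of bins at 0. The other early libraries had 20.4 to 62.2 reads per bin and the late ones 22.6 to 54.1. Whether this depth bears on the comparison of late with early libraries was not tested. Chromosome 12 was listed at 0 in every library of replicate 2 and was left out. The 25 min library stood apart: its NDRs were nearly filled, so it is given separately. The bulk signal lay 12.5 bp towards lower chromosome coordinates relative to the nascent libraries, which lay within 0.351 bp of each other. In bulk, this put the lowest NDR bin at −110 bp for W genes and at −70 bp for C genes. Values for bulk moved back by this offset (bulk realigned) are given where they bear on a result.

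The TSSs of the pairs were a median of 246 bp apart (quartiles 152 and 568 bp). In 170 pairs the TSSs of the tables crossed (median −313 bp), so that the transcripts would overlap at their 5′ ends if both genes are transcribed as listed. Of the 2768 divergent genes, 2558 were found in the R64 annotation, and the others were kept in the class means. How many crossed pairs hold a gene missing from the annotation was not counted. A few listed distances are implausible for neighbours: YDL010W and YDL011C are listed at −166166 bp, YDR262W and YDR261C at 13856 bp and YGR162W and YGR161C at 14496 bp. They were kept in their classes. They were 0 to 300 bp apart in 609 pairs, 300 to 500 bp in 196, 500 to 1000 bp in 248 and farther in 161. TSSs of same-strand neighbours were a median of 1785.5 bp apart.

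Averaged over each class, the −1 nucleosome separated divergent from same-strand genes, less so in nascent than in bulk chromatin. The direction of this difference varied with TSS distance, as given below. MNase signal is an average over cells, so fewer DNA copies with a nucleosome and less exact positions cannot be told apart. Profiles were averaged over genes and divided by their mean from −500 to 1000 bp. The −1 height was the highest bin between −400 bp and the NDR. That of divergent genes reached 1.03 ± 0.021 (SD, n = 10) in nascent libraries at 2 to 15 min, against 1.15 in bulk. That of same-strand genes was 0.987 ± 0.016 in the same nascent libraries, against 0.970 in bulk, but in 4 of the 10 libraries this highest bin was the edge of the search at −390 bp and not a peak. The classes therefore differed by 0.044 ± 0.016 in nascent chromatin and by 0.178 in bulk. Over the times up to 15 min, all 11 nascent libraries had a difference above 0 (0.020 to 0.066), and the bulk value lay above them. At 25 min the difference was −0.02. In fixed bins from −270 to −210 bp, a measure chosen after seeing the data, the classes differed by 0.057 ± 0.015 in the 10 nascent libraries and by 0.175 in bulk.

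**Figure D1:**
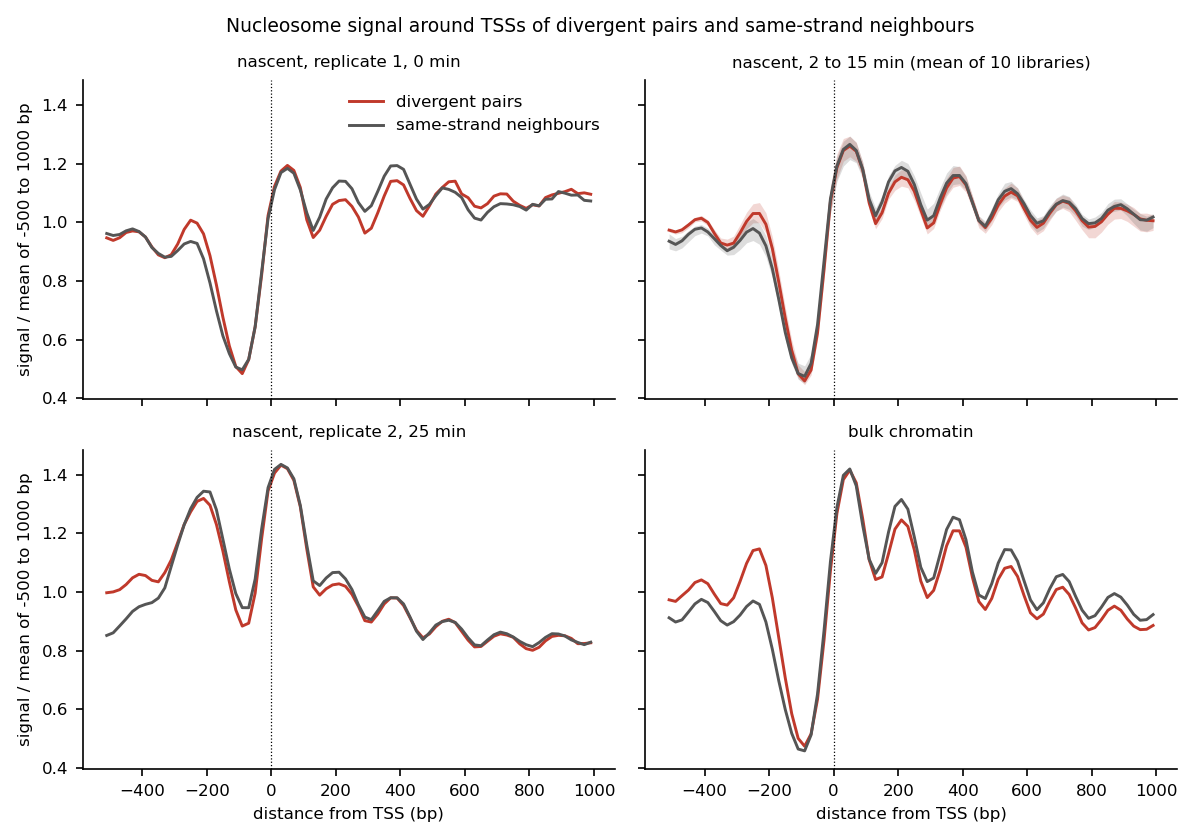
Mean MNase signal from −510 to 1000 bp around the TSS (x axis, bp), divided by its mean from −500 to 1000 bp (y axis), for divergent pairs (red) and same-strand neighbours (grey) in 4 panels: nascent at 0 min, nascent at 2 to 15 min (lines, means of 10 libraries; bands, their range), nascent at 25 min and bulk. The peak near −230 bp in bulk is higher in divergent genes (1.15 against 0.970), and the 2 lines lie closer together there in nascent libraries at 2 to 15 min.

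The same held for the whole upstream stretch. The mean signal from −500 to −200 bp was 0.981 ± 0.011 in nascent libraries at 2 to 15 min and 1.03 in bulk for divergent genes. For same-strand genes it was 0.946 ± 0.0089 and 0.931. The 0 min library had the smallest difference between the classes in this stretch, 0.017, and the 25 min library had 0.058, against 0.101 in bulk. The upstream difference was 0.041 ± 0.0056 in late libraries (8 and 15 min, n = 4) and 0.033 ± 0.0041 in early ones (2 and 4 min, n = 4). Within each replicate both late values lay above both early ones, and the change was not tested. It was not a steady rise. At 6 min the upstream difference was 0.023 in replicate 1, below both early values, and 0.029 in replicate 2, between the early ones. The difference in −1 height was 0.052 ± 0.013 in late libraries and 0.041 ± 0.018 in early ones, a change within the spread. With 1 bulk library, the spread of bulk values is unknown.

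Over the whole classes, NDR depth and +1 height separated them by less. The lowest NDR bin was at 0.459 ± 0.013 in divergent genes and 0.475 ± 0.017 in same-strand genes in nascent libraries at 2 to 15 min, and at 0.475 and 0.459 in bulk. Within libraries, the floor was lower in divergent genes in all 12 nascent libraries, with a difference of −0.015 ± 0.0060 over these 10, while the difference in bulk was 0.016. The +1 peak was at 1.26 ± 0.024 in divergent genes and 1.27 ± 0.028 in same-strand genes, against 1.42 in both classes in bulk. In both classes the +1 peak was thus lower in every nascent library up to 15 min than in bulk. The 25 min library had NDR minima of 0.884 in divergent genes and 0.947 in same-strand genes, and +1 peaks of 1.43 and 1.44. The sign of the class difference in NDR depth in bulk and in +1 height turned with the way the genes were averaged, as given in the closing section. With only TSSs within 1000 bp of each other, NDR depth differed by more than −1 height in nascent libraries. The differences were then −0.140 and 0.0725 over the 12 nascent libraries, against −0.0919 and 0.158 in bulk. Genes with a run of 7 A or T bases in the window described above had deeper NDRs: divergent genes reached 0.404 ± 0.016 with a run (n = 896 genes) and 0.430 ± 0.014 without (n = 1662 genes) over the 10 nascent libraries, and 0.398 and 0.455 in bulk.

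**Figure D2:**
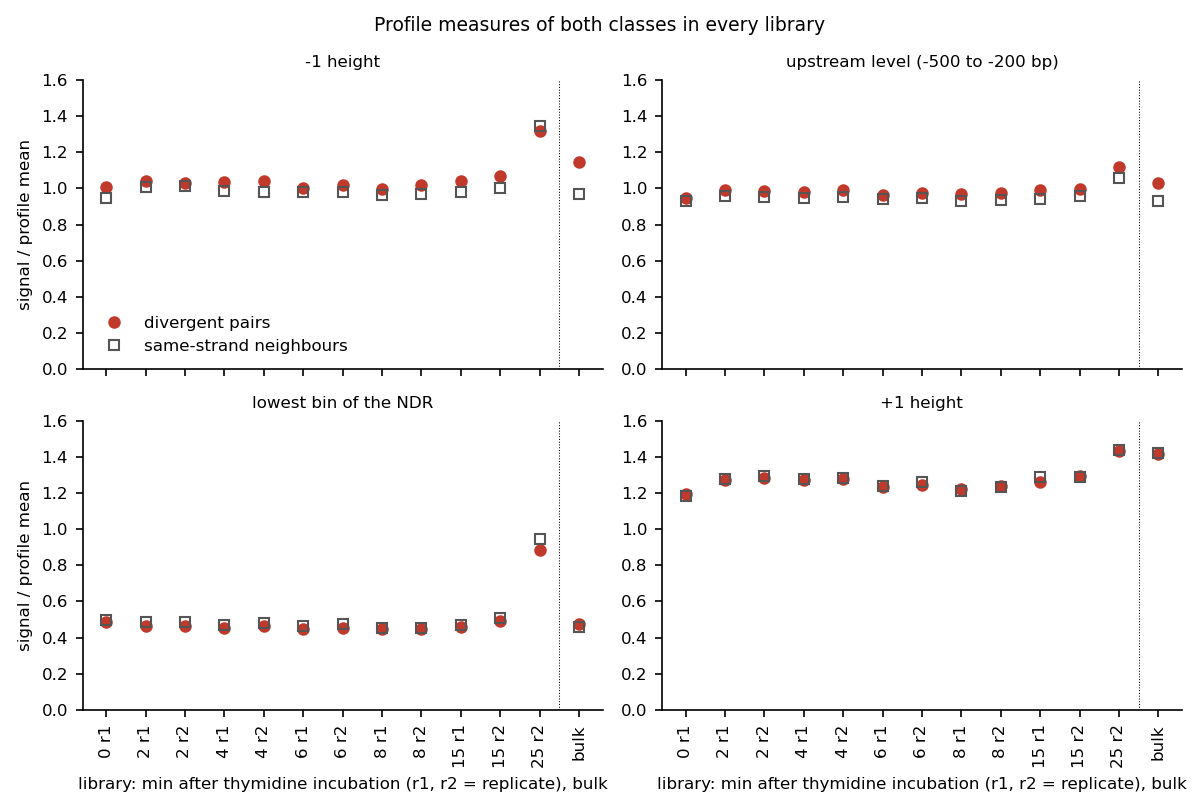
Profile measures (y axis, signal divided by the profile mean, starting at 0) in each of the 13 libraries (x axis, min after the thymidine incubation, r1 and r2 for the replicates, bulk last) for divergent pairs (red circles) and same-strand neighbours (open grey squares). The −1 height of divergent genes lies above that of same-strand genes by 0.178 in bulk and by 0.020 to 0.066 in the nascent libraries up to 15 min, while the +1 heights of the 2 classes nearly coincide.

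The signal at the −1 position also differed with the distance to the partner. It is given here in the fixed bins from −270 to −210 bp, because the highest bin lay at the −390 bp edge of the search in pairs 300 to 500 bp apart. In pairs with TSSs 0 to 300 bp apart, where these bins take in the +1 nucleosome of the partner, the signal was 1.19 ± 0.025 in nascent libraries at 2 to 15 min and 1.33 in bulk. In pairs 300 to 500 bp apart it was 0.744 ± 0.030 in these nascent libraries and 0.876 in bulk, and in pairs 500 to 1000 bp apart 0.842 ± 0.018 and 0.919. The nascent values of these 3 classes lay below bulk in each of the 10 libraries. In crossed pairs the signal was 1.002 ± 0.019 in nascent libraries and 1.03 in bulk, and some nascent values lay above bulk (highest 1.031). In pairs 1000 bp or farther apart it was 0.875 ± 0.021 and 0.913, and each of the 10 nascent values again lay below bulk (highest 0.902). Same-strand genes had 0.957 ± 0.025 and 0.944 in these bins. Only pairs 0 to 300 bp apart and crossed pairs lay above that, and pairs 300 bp or farther apart lay below it. Upstream levels in nascent libraries at 2 to 15 min were likewise 1.10 and 0.993 in the first 2 sets. They were 0.884, 0.796 and 0.869 in the wider ones, against 0.946 in same-strand genes. In bulk, pairs 300 to 500 bp apart were above same-strand genes there (0.954 against 0.931). NDRs were deepest in the pairs 0 to 300 bp apart (0.343 ± 0.012 nascent, 0.369 bulk) and shallowest in crossed pairs (0.697 ± 0.013 nascent, 0.708 bulk), where the partner's transcribed region covers the promoter window. These bulk values are not realigned, and the offset moves W and C genes in opposite directions relative to the TSS. In pairs aligned at their middle, described next, nascent floors were not below bulk beyond the spread. They were 0.299 against 0.249 in bulk at 100 to 200 bp and 0.230 against 0.236 at 200 to 300 bp.

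The shape of the shared promoter differed with the distance between the TSSs. Pairs were aligned at the middle between their TSSs, which places the +1 nucleosome of the C gene on the left and that of the W gene on the right. In the 267 pairs with TSSs 100 to 200 bp apart, a single NDR lay between the +1 nucleosomes, whose peaks were 260 bp apart at every nascent time from 0 to 15 min and 280 bp apart in bulk. Relative to the mean of −600 to 600 bp, the NDR floor was at 0.299 ± 0.015 in nascent libraries at 2 to 15 min (n = 10) and 0.249 in bulk. The mean of the +1 peaks was 1.305 ± 0.025 in these nascent libraries and 1.51 in bulk. The peak was therefore 4.37 ± 0.19 times the floor in nascent chromatin, against 6.07 times in bulk.

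In the 288 pairs with TSSs 200 to 300 bp apart, the single NDR was wider and its floor did not differ between nascent and bulk beyond the spread. It was at 0.230 ± 0.0095 in nascent libraries at 2 to 15 min and at 0.236 in bulk. The +1 peaks were again lower, at 1.31 ± 0.024 in nascent libraries against 1.502 in bulk. The 0 min library had the highest floor up to 15 min in both sets of pairs (0.394 and 0.274). At 25 min the floor was at 0.545 in the pairs 100 to 200 bp apart and at 0.838 in those 200 to 300 bp apart.

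In the 196 pairs with TSSs 300 to 500 bp apart, the shared promoter was wide enough for a nucleosome in its middle, with an NDR on each side. The middle peak was at 0.751 ± 0.029 in nascent libraries at 2 to 15 min, against 0.897 in bulk. It was below bulk in each of these 10 libraries (0.718 to 0.821), at 0.785 at 0 min, and at 1.25 at 25 min. The floors of the flanking NDRs were at 0.481 ± 0.025 in nascent libraries and 0.474 in bulk. These bulk values need no realignment, since the offset moves the whole aligned profile without changing its heights.

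**Figure D3:**
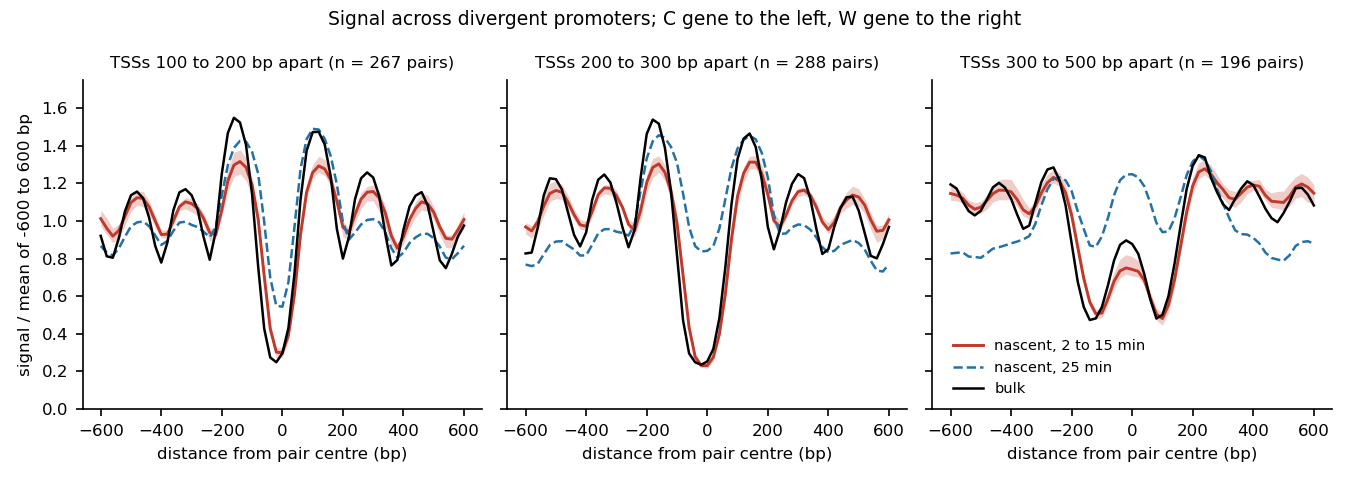
Signal (y axis, divided by the mean of −600 to 600 bp) across divergent promoters aligned at the middle between the TSSs (x axis, bp), in 3 panels by TSS distance. Red lines and bands are the mean and the range of the 10 nascent libraries at 2 to 15 min, the dashed blue line is nascent at 25 min and the black line is bulk. Pairs 300 to 500 bp apart show a middle peak that is lower in nascent libraries at 2 to 15 min (0.751) than in bulk (0.897), and higher at 25 min (1.25).

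To compare single genes, the signal in 3 windows was divided by the mean signal over the gene body (0 to 1000 bp): the promoter (−150 to 0 bp), the upstream window (−500 to −150 bp) and the +1 window (0 to 120 bp). Ratios were tested on the log2(ratio + 0.1) scale with limma over all genes, and p-values were adjusted over all genes by the Benjamini-Hochberg method. On this scale, the median upstream ratio of divergent genes was 0.09 log2 units lower in nascent than in bulk chromatin (−0.09, 10 libraries against 1), and 60.7% of 2738 genes were below 0. The median of same-strand genes was 0.03, with 47.5% of 2307 genes below 0, and the median of all 5669 genes tested was −0.04. The +1 ratio had medians of −0.13 in divergent genes, −0.09 in same-strand genes and −0.10 in all genes. These +1 medians depended on the scaling: they were −0.03, 0.0027 and −0.0038 with quantile normalization and −0.06, −0.04 and −0.05 with a pseudocount of 1. The promoter ratio had medians of −0.03, 0.03 and −0.0043 in the same sets. With all 12 nascent libraries they were 0.02, 0.09 and 0.04, so the sign in divergent genes turned, and without replicate 2 the same-strand median was 0.0055. The upstream medians kept their sign in both classes under each alternative (−0.11 to −0.04 in divergent and 0.02 to 0.06 in same-strand genes).

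These medians differed with the TSS distance, though not in a steady order. They were not taken by distance with quantile normalization or other pseudocounts. The median +1 difference between nascent and bulk was −0.18 in pairs 0 to 300 bp apart, with 72.1% of the genes below 0. In pairs 300 to 500 bp apart and in those 500 to 1000 bp apart it was −0.11, close to the −0.10 of all genes. It was −0.0092 in pairs 1000 bp or farther apart (309 genes, 52.4% below 0). The upstream ratio was lowest in pairs 300 to 500 bp apart (median −0.16, 68.7% of 386 genes below 0), whose upstream window takes in the middle nucleosome and the start of the partner. Genes of crossed pairs had a median upstream difference of 0.06. With bulk realigned, the +1 medians were −0.21 and −0.02 in pairs 0 to 300 bp and 1000 bp or farther apart, and the upstream medians moved by less than 0.01. In pairs 0 to 300 bp apart the 2 genes share upstream DNA, so their upstream values are not independent of the +1 values of their partners. The +1 windows are separate DNA, and across 604 pairs 0 to 300 bp apart the +1 differences of the 2 partners had a Spearman rho of −0.02. Both partners were below bulk in 51.99% of these pairs and both above in 7.62%. Among 2293 pairs of same-strand neighbours, both were below in 39.2%. Single genes were also below bulk more often in the close pairs (72.1%, against 61.7% of same-strand genes). These shares therefore do not show that partners moved together.

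**Figure D4:**
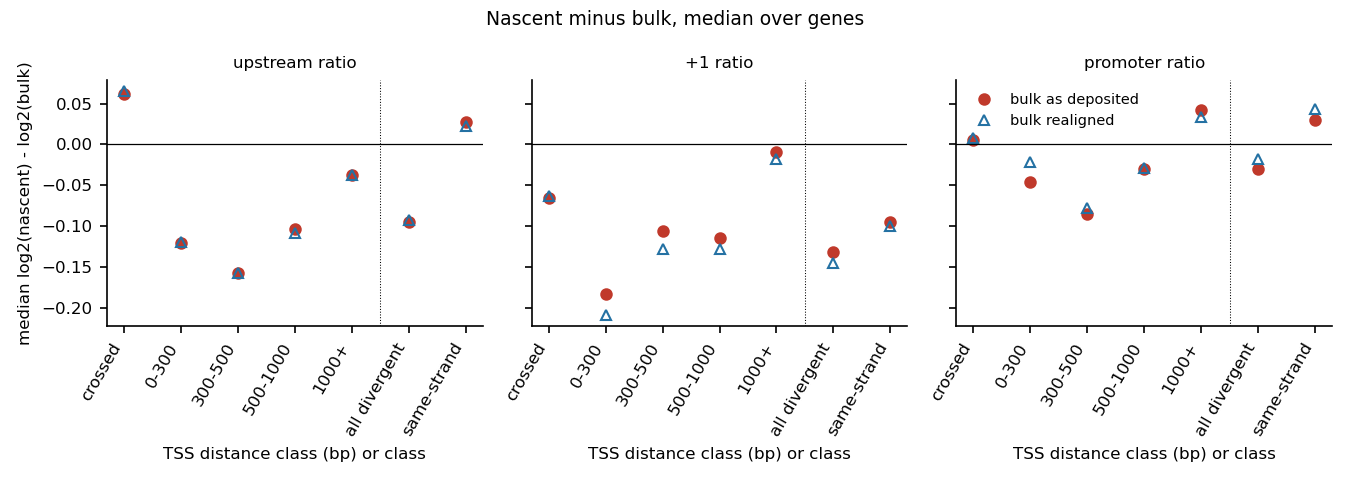
Median over genes of the nascent minus bulk difference in log2(ratio + 0.1) (y axis) for the upstream, +1 and promoter ratios, by TSS distance class of the pairs and for all divergent and same-strand genes (x axis). Red circles are bulk as deposited and blue triangles bulk realigned. The +1 median is lowest in pairs 0 to 300 bp apart (−0.18) and near 0 in pairs 1000 bp or farther apart.

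Gene by gene, few of these differences could be called against 1 bulk library. No promoter or upstream ratio passed an adjusted p of 0.05 by limma in nascent against bulk. An unadjusted p under 0.05 was found for 133 of 2735 divergent promoters, against 300 of 5665 over all genes. For upstream ratios it was found in 131 of 2738 divergent genes, against 282 of 5669. These shares were close to those over all genes. One +1 ratio passed, that of PRP16, which encodes a splicing helicase. This is 1 of 2732 divergent genes tested, against 0.0177% of all genes (1 of 5663). The PRP16 +1 ratio was listed at 0 in each nascent library up to 15 min, at 0.131 at 25 min and at 0.142 in bulk (adjusted p = 7.2e-05 by limma). Its test rests on values without spread next to a pseudocount, and the adjusted p was 1 with a pseudocount of 1. With the 0 and 25 min libraries added no divergent gene passed, and likewise with either replicate left out. Its partner MRPL20, a mitochondrial ribosomal protein gene 152 bp away, had +1 ratios from 0.421 to 3.17 (median 1.85) in the 10 nascent libraries at 2 to 15 min, against 1.38 in bulk.

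Between late and early nascent libraries (8 and 15 against 2 and 4 min), 3 divergent promoters gained signal: those of AVT6, DSE1 and YCL041C. The background was 0.0706% of all genes (4 of 5665), and the other called promoter was 1 of 2307 same-strand genes. An unadjusted p under 0.05 by limma was found in 209 of 2735 divergent, 181 of 2307 same-strand and 453 of all 5665 genes. No promoter was called lower. No upstream ratio was called in either direction. Here 278 of 2738 divergent, 235 of 2307 same-strand and 598 of all 5669 genes had an unadjusted p under 0.05. With either replicate left out, no promoter was called. The promoter ratios of all divergent genes had a median change of −0.0095, against −0.03 in same-strand genes.

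AVT6, a vacuolar amino acid transporter gene, had promoter ratios of 0.512 at 0 min, of 0 and 0.0038 at 2 min, of 0 and 0 at 4 min, of 0.235 and 0.373 at 6 min, of 0.432 and 0.196 at 8 min, of 0.436 and 0.569 at 15 min and of 1.14 at 25 min, with replicate 1 first, against 0.774 in bulk. All 4 late values lay above all 4 early ones and below bulk. The change was 2.27 ± 0.25 on the log2 scale (SE, adjusted p = 0.0095 by limma), and it ranged from 0.49 to 5.18 over the alternatives because the early values are at or near 0. SCS2, its partner, encodes a membrane protein of the endoplasmic reticulum, and its TSS lies 279 bp from that of AVT6. The SCS2 promoter ratio had a median of 0.122 in the 10 nascent libraries at 2 to 15 min (0 to 0.423), against 0.409 in bulk. It changed by 1.07 ± 0.50 (adjusted p = 0.62), and its values in late libraries (0 to 0.423) overlapped those in early ones (0 to 0.120). The shared promoter is the one printed above with a run of T bases in its middle.

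DSE1 encodes a protein specific to daughter cells, and its partner RSP5 is a ubiquitin ligase gene 568 bp away. The DSE1 promoter ratio of the late libraries was 0.560 (8 min) and 0.664 (15 min) in replicate 1 and 0.723 and 1.37 in replicate 2. That of the early libraries was 0.101 (2 min) and 0 (4 min) in replicate 1 and 0.111 and 0.0383 in replicate 2. At 6 min it was 0.971 and 0.555, and bulk had 1.08. The change was 2.50 ± 0.32 (adjusted p = 0.017 by limma). The RSP5 promoter, which at this distance is other DNA, changed by −0.27 ± 0.20 (adjusted p = 0.72). RSP5 values lay between 0.120 and 0.333 in the 10 nascent libraries, against 0.343 in bulk.

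YCL041C is not in the R64 annotation used here, and GLK1, the glucokinase gene, lies 231 bp from it. The late promoter ratios of YCL041C were 2.01 (8 min) and 3.18 (15 min) in replicate 1 and 1.53 and 2.41 in replicate 2. The early ones were 0.194 (2 min) and 0.316 (4 min) in replicate 1 and 0.299 and 0.250 in replicate 2. Bulk had 2.12, and the 25 min library had 0.322. The change was 2.67 ± 0.24 (adjusted p = 0.0032 by limma). GLK1 moved in the same direction: its late promoter ratios lay between 0.765 and 1.32, and its early ones between 0.094 and 0.410. Its late values did not overlap its early ones, and its change of 1.64 ± 0.30 did not pass the test (adjusted p = 0.16). The promoter windows of the 2 genes share part of their DNA at this distance, so GLK1 is not an independent observation.

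**Figure D5:**
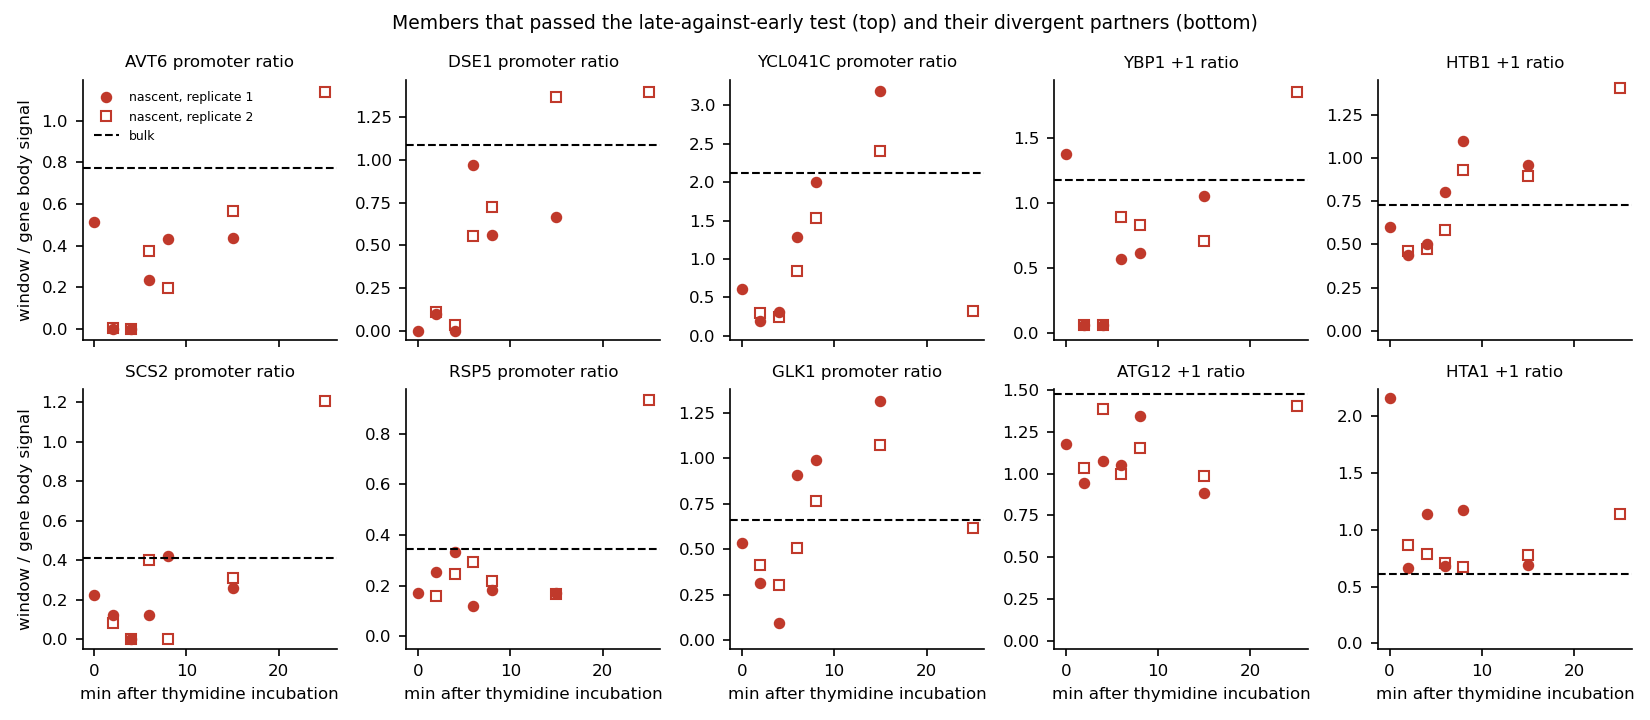
Ratio of the promoter or +1 window to the gene body (y axis) against min after the thymidine incubation (x axis) for the 5 members that passed the late-against-early test (top row) and their partners (bottom row). Filled circles are nascent libraries of replicate 1, open squares those of replicate 2, and the dashed line is bulk. In the top row each value at 8 and 15 min lies above each value at 2 and 4 min.

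At the +1 position 2 of 2732 divergent genes passed, against 0.0353% of all genes (2 of 5663) and 0 of 2308 same-strand genes. An unadjusted p under 0.05 by limma was found in 246 of these divergent, 258 of these same-strand and 544 of all genes. YBP1 encodes a protein that binds the transcription factor Yap1 in the response to peroxide. Its late +1 ratios were 0.617 (8 min) and 1.05 (15 min) in replicate 1 and 0.8291 and 0.706 in replicate 2. The early ones were 0.0611 (2 min) and 0.0641 (4 min) in replicate 1 and 0.0635 and 0.0638 in replicate 2. The values at 6 min, 0.572 and 0.890, lay among or near the late ones. Bulk had 1.18 and the 25 min library 1.86, while the shallow 0 min library had 1.38. The change was 2.44 ± 0.15 (adjusted p = 0.0021 by limma). The partner ATG12, which encodes a ubiquitin-like protein of autophagy, has its TSS 160 bp away and had +1 ratios from 0.886 to 1.39 over the 10 nascent libraries, with a change of −0.03 ± 0.16 (adjusted p = 0.99). Their promoter windows are the same DNA, and the mean signal there was 0.735 to 1.13 in the 4 early libraries. On this pair, then, the low early signal was seen at the +1 window of one gene and neither in the promoter nor at the +1 window of the other.

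HTB1 was the other gene, and it belongs to the histone pairs. Its late +1 ratios were 1.10 (8 min) and 0.957 (15 min) in replicate 1 and 0.932 and 0.893 in replicate 2. The early ones were 0.440 (2 min) and 0.4998 (4 min) in replicate 1 and 0.462 and 0.475 in replicate 2. Bulk had 0.726, between the early and the late values. The change was 0.91 ± 0.09 (adjusted p = 0.036 by limma), and with the replicate block only 1 of the 2 genes with a called +1 ratio passed. The HTB1 promoter changed by 1.55 ± 0.33 (adjusted p = 0.24 by limma) and its upstream window by 0.64 ± 0.41 (adjusted p = 0.60), and neither passed. All these HTB1 ratios rose and are divided by the same gene body signal. Whether that signal carried the +1 change was not tested. HTA1, whose TSS lies 616 bp away, changed by −0.06 ± 0.21 at the +1 position (adjusted p = 0.96) and by −0.28 ± 0.58 in the promoter (adjusted p = 0.92). Over the 8 genes of the 4 histone pairs, 1 of 8 +1 ratios was called and no promoter or upstream ratio. The median changes of these genes between late and early libraries were 0.09 in the promoter, 0.44 in the upstream window and 0.24 at +1, against −0.02, −0.0022 and −0.0025 over all genes. HHT2 and HHF2, which encode histones H3 and H4 from TSSs 554 bp apart, had changes of 0.83 ± 0.25 and 1.604 ± 0.40 in the promoter, which did not pass (adjusted p = 0.48 and 0.36 by limma). HTA2 and HTB2, 224 bp apart, had −0.0049 ± 0.32 and 0.01 ± 0.23 there. Against bulk, 6 of the 8 promoters were below 0 (median −0.37) and none was called. The copies of each histone are close to identical in sequence and their reads may have been split between loci, so gene body values of these genes are uncertain.

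Among the pairs with shared functions in nutrient use, no ratio of the 8 genes was called in any of the 6 fits. GAL1 and GAL10, whose TSSs lie 524 bp apart, had nascent promoter ratios with medians above 1. That of GAL1 ranged from 0.979 to 1.74 (median 1.24) in the 10 nascent libraries, against 1.88 in bulk, and each of the 10 values lay below bulk. That of GAL10 ranged from 0.593 to 1.93 (median 1.11), against 0.712 in bulk. SNZ1 and SNO1, the vitamin B6 pair, have TSSs 446 bp apart: SNZ1 had a median of 1.27 against 1.12, and SNO1 one of 0.926 against 1.04. DAL1 and DAL4, of allantoin use, have TSSs 3192 bp apart, so that their promoter windows are separate DNA. They had medians of 1.35 and 1.12 in nascent libraries, against 1.36 and 0.885 in bulk. BIO3 and BIO4, of biotin synthesis, have crossed TSSs (−37 bp), and their promoter ratios spanned 0.119 to 1.56 and 0.508 to 1.48, on both sides of bulk (0.793 and 0.721).

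The pairs whose promoters both lay farthest from bulk were picked by the smaller of their 2 nascent minus bulk differences, so the direction below is what chose them and carries no test. PRP5 and ABD1, which encode a splicing helicase and the methyltransferase of the mRNA cap, share a promoter of 208 bp. The ABD1 promoter was listed at 0 in all 9 nascent libraries up to 8 min, and had ratios of 0.206 and 0.198 at 15 min and 0.399 at 25 min, against 0.221 in bulk. Its +1 window was listed at 0 in all 13 libraries. The PRP5 promoter was listed at 0 in 8 of the 9 nascent libraries up to 8 min (0.0143 in replicate 1 at 2 min), with 0.577 and 0.428 at 15 min, against 0.406 in bulk. The change between late and early libraries was 1.24 ± 0.60 for PRP5 and 0.80 ± 0.39 for ABD1 on the log2 scale, and neither passed (adjusted p = 0.63 for each by limma). RPS16A and RPL13B, ribosomal protein genes 576 bp apart, had mean promoter ratios of 0.180 ± 0.20 and 0.044 ± 0.041 in the 10 nascent libraries, against 0.428 and 0.353 in bulk. AVT6 and SCS2, described above, were the other pair below bulk.

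Above bulk were YFL014W (HSP12, a membrane protein of stress) with YFL015C, ENO2 (enolase) with YHR173C, and PTR2 (a peptide transporter) with SRP40 (a nucleolar protein). HSP12 had promoter ratios from 0.830 to 1.62 (median 1.06) in the 10 nascent libraries, all above the 0.509 of bulk. PTR2 had ratios from 0.582 to 1.38 (median 1.05), also all above bulk (0.478). ENO2 had a median of 0.497 (0.312 to 1.25), against 0.194 in bulk. SRP40 was listed at 0 in bulk and in 2 of the 10 nascent libraries, and the YHR173C ratio reached 24.1 in 1 library because its gene body signal was near 0 there (0.0187), so neither value is firm.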

How the data were processed

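The authors deposited MNase signal around each TSS, in 20 bp bins, for nascent chromatin libraries (1 table per replicate) and bulk chromatin. Per the study's methods and the values, this signal is read coverage divided by the mean coverage of the library. CASAVA 1.7.0 is named in the submitters' processing notes, and aligner and build are not given in the sources used here. Cells without a number (R, NaN) were taken as missing. Another 37956 rows of 6 row names for a standard were not used.

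Libraries were grouped by the labels into early (2 and 4 min), late (8 and 15 min), 10 nascent (2 to 15 min) and bulk. Profiles were means over genes, and these class profiles were not tested. Window ratios, as log2(ratio + 0.1), were fitted over all genes with body signal above 0 in every library of the fit, with limma 3.58.1 (R 4.3.3), and p-values were adjusted by Benjamini-Hochberg. Named genes were the histone and nutrient pairs, up to 3 called members per direction with their partners, and the 3 pairs per direction whose promoters both lay farthest from bulk. Members, lists and tests were chosen with earlier results of these data known. Other steps used Python 3.11.15, numpy 2.4.6, scipy 1.17.1 and matplotlib 3.10.9. The fit was tested on simulated data. Alternatives were other pseudocounts (1 and 0.01), no filter or a minimum of 0.1 on gene body signal, 1 strand alone, profiles without the 0 or 25 min library, quantile normalization, a replicate block, leaving out a replicate, 15 against 2 min, all 12 nascent libraries, other averages, other gene sets and, chosen after seeing the data, bulk realigned and fixed bins for the −1 position.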

Additional observations from a re-analysis of the deposited data

Results flagged for a closer look

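In each group of 4 to 10 libraries, the highest and the lowest value were tested by Dixon's ratio, which flags about 1 in 20 groups by chance. Of 42 groups tested, 3 had a library far from the others. The width of the NDR, given as divergent minus same-strand, was 0 bp in replicate 2 at 15 min, while the other late libraries had −20 bp, which is 1 bin. The +1 height difference between the same classes was −0.0244 in replicate 1 at 15 min, apart from the other late libraries (Dixon's ratio 0.837). The AVT6 promoter ratio was 0.0038 in replicate 2 at 2 min, while the other early libraries were listed at 0. The causes were not tested.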

How the results depend on the processing

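The −1 height and the upstream level of divergent minus same-strand profiles kept their direction under every alternative, fixed bins from −270 to −210 bp included (0.0522 over the 12 nascent libraries). Each gene divided by its own mean gave 0.144 and 0.0882 in bulk, and TSSs within 1000 bp gave 0.0725 and 0.0652 over the 12 nascent libraries. The setting of TSSs within 1000 bp kept 2110 divergent but only 429 of 2340 same-strand genes, so its comparison group is not the main one. Other measures turned or moved, and the cause was not tested. With the median over genes, NDR depth was −0.0358 in nascent and −0.0285 in bulk libraries, +1 height 0.0110 and 0.00753, the peak/trough ratio −0.00811 and 0.000329, and NDR width −3.33 bp in nascent libraries. With genes that had values at every bin, NDR depth was −0.0373 and −0.00994, +1 height 0.0144 and 0.00984, and peak/trough −0.000465 and −0.00917. With TSSs within 1000 bp, NDR depth was −0.140 and −0.0919, NDR width 0 and 0, +1 height 0.0347 and 0.0729, and peak/trough 0.0144 and 0.0351. With each gene divided by its own mean, +1 height was −0.0162 and −0.0204. In bulk alone, +1 height was 0.0038 without names that share a number with a suffixed name and 0.0028 realigned, and peak/trough was −0.0101 with 1 value per pair and −0.000411 realigned.

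The number of divergent promoters called in late against early libraries was 1 with a pseudocount of 1, 6 with quantile normalization, 0 for 15 against 2 min and 0 to 0 without either replicate. Same-strand counts were 0, 4, 0 and 0 to 0 in that order, and 0 with a pseudocount of 0.01. At +1, divergent counts were 0, 1, 0 and 0 to 0. In nascent against bulk, a pseudocount of 0.01 gave 1 divergent promoter and 2 same-strand +1 ratios. The divergent +1 count was 0 with a pseudocount of 1, with quantile normalization, with all 12 nascent libraries, and 0 to 0 without either replicate. YCL041C passed in 6 of 7 alternatives that kept both replicates, AVT6 and YBP1 in 5, DSE1 and PRP16 in 4 and HTB1 in 3. With either replicate left out, the +1 change was −0.16 to 0.11 for ATG12, −0.17 to 0.048 for HTA1 and −0.13 to 0.37 for MRPL20.

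With a replicate block, 1 divergent +1 ratio passed in late against early libraries, HTB1 being lost, and the promoter count stayed at 3. The main fits took the libraries as independent. Replicate 1 minus replicate 2 differences of single genes correlated at −0.0021 to 0.0702 between times, over 18 comparisons. Single-gene values also carry counting noise, so these low values cannot decide whether times of 1 replicate are independent. With 1 bulk library, the precision of bulk values is unknown.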
